A study of Mus musculus with 12 samples.

Results

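The insulin-like growth factor (IGF) axis of embryonic muscle progenitors was followed through 8 genes: the ligand Igf1, its receptor Igf1r, the binding proteins Igfbp2, Igfbp3, Igfbp4, Igfbp5 and Igfbp7, and Kazald1, a secreted relative with an IGFBP-type domain. They were chosen by name, with earlier results of these data known. Every probe set that the platform annotation gives to 1 of them alone was used. This gave 19 probe sets for 8 of the 12393 genes on the array. The cells came from ICR mouse embryos carrying Myf5Cre;RosaYFP, so that a cell is fluorescent once it, or a cell it descends from, has switched on Myf5, an early regulator of muscle fate. All groups carry both alleles, and the labels state that the whole myogenic lineage is marked. Head and trunk tissue was dispersed at embryonic day 9.5, 10.5 or 11.5 (E9.5, E10.5, E11.5) and YFP-positive cells were sorted, which gave 6 groups: head at E9.5, E10.5 and E11.5, and trunk at E9.5, E10.5 and E11.5, with 2 arrays each. How many embryos went into a sample is not stated in the labels, so the p-values describe nothing beyond the spread of these arrays.

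IGF1 is a secreted growth factor that acts through the tyrosine kinase receptor IGF1R, which signals to the PI3 kinase and MAP kinase pathways, and in muscle it promotes growth of progenitors and of differentiated fibres. The IGF binding proteins hold most of the extracellular ligand: depending on the protein, its proteases and the matrix, they keep IGFs from the receptor or deliver them to it. Some of them, IGFBP3 and IGFBP5 among them, also act on cells without IGFs.

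Igf1 and the binding proteins followed different courses. In trunk cells Igf1 was 15.0-fold higher at E11.5 than at E9.5, while in head cells it lay at nearly the same level at these stages, so that it was higher in head at E9.5 and lower in head at E11.5. Igfbp2 and Igfbp3 were higher in head when the 3 stages were averaged, and the head excess of each was smaller at E11.5 than at E9.5 without passing the test of that difference. Kazald1 lay above the array median on every head array and below it on every trunk array. Igfbp5 was called higher in head at E9.5 and at neither later stage. Igf1r and Igfbp4 passed no test in any comparison by their brightest probe sets, and Igfbp7 was at the edge of measurement.

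At E9.5, 5 genes were called higher in head, where 4.67% of all genes were. That call is what all 5 share: their courses at the later stages differed, and Kazald1 was tested through its head arrays only. Their upstream sequences are shown so that they can be read beside the signals. Each is the 250 bases before the annotated start, from RefSeq in build GRCm38.p6, written 5′ to 3′ along the gene's own strand, and capitals mark matches to the E-box CANNTG, the letters bound by MyoD-family and TWIST-type factors. All 8 genes had a window; Igfbp2 and Kazald1 had more than 1, of which the first listed is printed.
Igf1, chr10:87860861-87861110, plus strand: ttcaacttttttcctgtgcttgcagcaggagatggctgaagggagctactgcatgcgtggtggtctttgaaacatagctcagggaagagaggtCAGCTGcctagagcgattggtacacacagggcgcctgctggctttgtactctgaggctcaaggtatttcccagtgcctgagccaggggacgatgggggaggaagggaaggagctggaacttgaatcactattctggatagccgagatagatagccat
Igfbp2, chr1:72824230-72824479, plus strand: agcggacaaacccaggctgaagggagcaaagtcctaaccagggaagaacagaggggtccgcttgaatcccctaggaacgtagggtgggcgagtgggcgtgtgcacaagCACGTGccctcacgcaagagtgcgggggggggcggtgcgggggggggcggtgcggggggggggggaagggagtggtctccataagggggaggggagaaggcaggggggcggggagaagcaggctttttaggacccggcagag
Igfbp3, chr11:7213924-7214173, minus strand: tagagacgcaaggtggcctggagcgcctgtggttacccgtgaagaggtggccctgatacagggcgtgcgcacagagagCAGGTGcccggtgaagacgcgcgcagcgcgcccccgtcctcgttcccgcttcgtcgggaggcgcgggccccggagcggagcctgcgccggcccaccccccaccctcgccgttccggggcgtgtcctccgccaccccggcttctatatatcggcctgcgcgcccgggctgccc
Igfbp5, chr1:72874866-72875115, minus strand: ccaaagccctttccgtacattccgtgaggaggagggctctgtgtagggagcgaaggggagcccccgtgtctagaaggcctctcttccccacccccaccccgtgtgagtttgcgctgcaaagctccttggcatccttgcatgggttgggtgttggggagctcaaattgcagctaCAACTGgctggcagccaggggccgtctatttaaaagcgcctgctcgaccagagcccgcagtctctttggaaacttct
Kazald1, chr19:45074991-45075240, plus strand: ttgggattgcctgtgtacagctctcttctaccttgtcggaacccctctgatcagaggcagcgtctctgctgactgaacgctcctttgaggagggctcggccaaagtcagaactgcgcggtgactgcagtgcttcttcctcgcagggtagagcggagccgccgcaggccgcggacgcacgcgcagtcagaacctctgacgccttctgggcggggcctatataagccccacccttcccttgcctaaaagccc
Igf1, Igfbp2, Igfbp3 and Igfbp5 each held 1 E-box in the printed window. The printed Kazald1 window held none and the other Kazald1 window held 1, as did the other Igfbp2 window. The motif, which reads the same on both strands, was found in 66.2% of the 32851 windows of this length. The Igf1 match was CAGCTG, found in 13.0% of windows, and that of Igfbp2 was CACGTG. The number of CpG dinucleotides was 5 before Igf1, 14 before Igfbp2, 32 before Igfbp3, 10 before Igfbp5 and 17 before Kazald1, with a median of 6 over all windows. These matches are a description of letters and say nothing about binding. Igfbp2 and Igfbp5 are neighbouring protein-coding genes on chromosome 1, and Igfbp3 lies beside Igfbp1 on chromosome 11. Igfbp1 was on the array but did not pass the filter on low signals.

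Signals are log2 of the deposited array intensity, on which an array's median probe set lies near 6.78, and a level of 1 probe set is never set against that of another. Median signals of the 12 arrays were 108.6 to 110.4 intensity units, and the 2 arrays of a group correlated across 7722 genes with Pearson r of 0.957 to 0.981, a description across genes. The trunk E9.5 arrays stood apart on the main axis of variation, which held 31.5% of the variance, at -50.1 and -43.9 against -8.90 to 26.9 for all other arrays. Xist was 7.35 on the E10.5 array numbered 1 of head and 6.37 on that of trunk, and 11.89 to 13.10 on the other arrays. A probe set was tested when at least 2 of the 12 arrays lay above their median, which held for 16 of the 19 probe sets and for all 8 genes. Igfbp7 passed through 2 head arrays at E10.5 only, and Kazald1 through head arrays only. For each gene the probe set with the highest mean stands for it.

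Myf5 lay above the array median on all 12 arrays Myod1, a later determination factor, on 8, and Myog, a gene of differentiation onset, on 10. Markers of other cell types differed between the regions. Of 12 endothelial genes 11 were tested, and all 11 were higher in head over the mean of the 3 stages. Tie1, Emcn and Eng passed the filter through head arrays alone, so a difference between the regions was built into their being tested. The summed log2 signal of the endothelial list was 11.35 to 11.90, 12.24 to 12.27 and 10.93 to 11.55 in head at E9.5, E10.5 and E11.5, against 9.63 to 9.72, 10.37 to 10.63 and 9.76 to 10.23 in trunk. Pecam1, a defining endothelial gene, lay below the median on all 12 arrays, and Kdr lay above it on all 12. Of 11 neuronal genes 10 were higher in head, with summed signals of 13.03 to 13.96 over the head arrays, against 9.70 to 10.28 in trunk at E9.5 and 12.55 to 12.92 in trunk at the later stages. Of 9 tested epithelial genes 7 were higher in head, and so were 4 of 4 tested macrophage and leukocyte genes, although Ptprc, Tyrobp, Cd68 and Lyz2 lay below the median on every array. Of 12 tested connective tissue genes 6 were lower in head. So were 4 of 6 tested sclerotome and cartilage genes, 4 of 10 of differentiating muscle and 3 of 6 neural progenitor genes. Of 8 tested myogenic genes 2 were higher and 2 lower, and of 5 tested erythroid genes 1 was higher. In these lists Tcf21, Tal1 and Gata1 also passed the filter through head arrays alone, and Uncx, Pax6 and Krt5 through trunk arrays alone. Over all genes tested, 6.85% were higher in head and 3.61% lower over the mean of the 3 stages. The part of these cells in the results below was not tested, and in sorted populations measured in bulk, fewer cells of a type and less RNA per cell cannot be told apart.

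**Figure D1:**
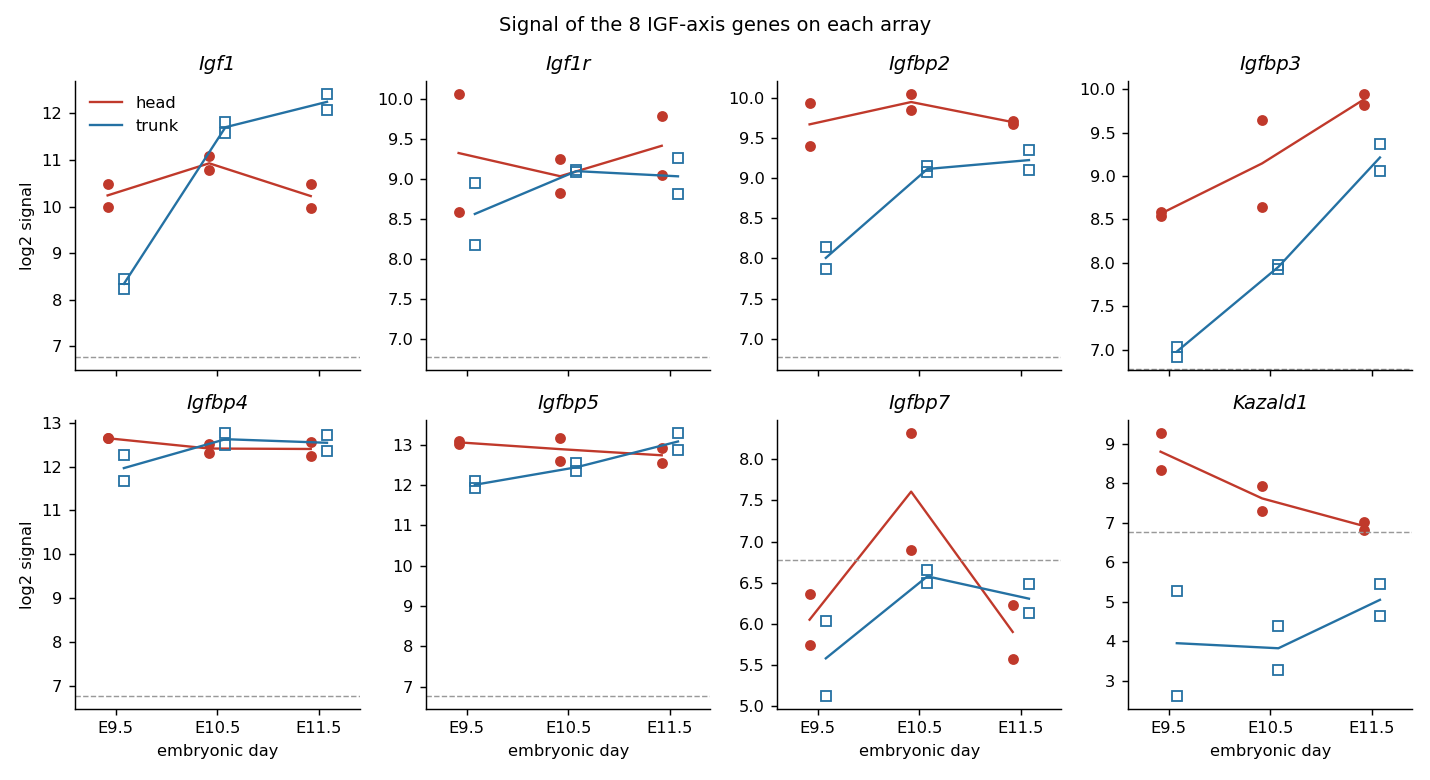
Log2 signal of the representing probe set of each of the 8 genes (y axis, scale differs between panels) by embryonic day (x axis). Filled circles are head arrays, open squares trunk arrays, lines join group means, and the dashed line is the mean array median, near 6.78. Trunk Igf1 crosses head Igf1 between E9.5 and E10.5, the Igfbp2 and Kazald1 head arrays all lie above the trunk arrays, and most Igfbp7 points and all trunk Kazald1 points lie below the dashed line.

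Igf1 encodes the ligand. Its signal on the head arrays was 9.99 and 10.49 at E9.5, 11.08 and 10.78 at E10.5, and 10.49 and 9.96 at E11.5. On the trunk arrays it was 8.44 and 8.24 at E9.5, 11.82 and 11.59 at E10.5, and 12.42 and 12.09 at E11.5. Both head arrays lay above both trunk arrays at E9.5 and below them at E10.5 and E11.5. On the linear scale the trunk arrays had 5462 and 4345 intensity units at E11.5, against 347 and 303 at E9.5. The order of the group means was trunk E11.5, trunk E10.5, head E10.5, head E9.5, head E11.5 and trunk E9.5. Of the neighbours in that order, head E9.5 and head E11.5 overlapped.

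At E9.5, Igf1 was 3.73-fold higher in head than in trunk, a log2 difference of 1.90 ± 0.23 (SE, adjusted p = 0.000433). At E10.5 the difference was -0.77 ± 0.23 and did not pass (adjusted p = 0.0751), although it did with the mean over the gene's probe sets (-0.92, adjusted p = 0.0309) and with the E10.5 groups compared alone (adjusted p = 0.0202). At E11.5, Igf1 was 4.07-fold lower in head, a log2 difference of -2.02 ± 0.23 (adjusted p = 0.000984). These opposite differences left a mean over the 3 stages of -0.30 ± 0.13 (adjusted p = 0.189). Over the mean of E10.5 and E11.5 only, Igf1 was lower in head by -1.40 on the log2 scale (adjusted p = 0.000415).

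In trunk cells Igf1 was 10.3-fold higher at E10.5 than at E9.5, a log2 change of 3.36 ± 0.23 (adjusted p = 1.51e-05), and 15.0-fold higher at E11.5 than at E9.5, a change of 3.91 ± 0.23 (adjusted p = 1.90e-06). Most of the trunk rise lay before E10.5, and the later step was 0.55 ± 0.23 (adjusted p = 0.601). In head cells the change between E9.5 and E11.5 was -0.01 ± 0.23, with a 95% interval of -0.51 to 0.48. The steps within head were 0.69 ± 0.23 up to E10.5 and -0.70 ± 0.23 after it, and neither passed (adjusted p = 0.184 and 0.162). The head change minus the trunk change was -3.92 ± 0.32 (adjusted p = 0.000363).

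The other Igf1 probe sets gave the same directions. Probe set 1419519_at had 9.88 and 9.68 in head at E9.5, against 7.36 and 7.69 in trunk, and 9.35 and 9.24 in head at E11.5, against 11.30 and 10.93 in trunk. Its head-minus-trunk difference was 2.25 ± 0.26 at E9.5 and -1.82 ± 0.26 at E11.5 (adjusted p = 0.000537 and 0.00729, over all probe sets). The dimmer probe set 1452014_a_at had differences of 0.81 ± 0.31 and -1.40 ± 0.31, and neither passed (adjusted p = 0.235 and 0.0618). The trunk rise to E11.5 was called for each of the 3 probe sets, with log2 changes of 2.18 to 3.91.

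Marker lists changed in both directions over the stages of the trunk Igf1 rise. Between E9.5 and E11.5 in trunk, 10 of 10 tested genes of differentiating muscle rose, as did 8 of 12 tested connective tissue genes and 9 of 11 neuronal genes. Of 9 tested epithelial genes 5 fell in trunk, where 8.73% of all genes rose and 4.71% fell. The summed log2 signal of the connective tissue list in trunk was 13.35 to 13.64 at E9.5, 14.28 to 14.62 at E10.5 and 14.70 to 14.87 at E11.5. In head, where Igf1 was nearly level, 8 of 10 differentiating muscle genes rose, and of 12 connective tissue genes 1 rose and 1 fell. Of 11 neuronal genes 0 rose and 1 fell in head, with 4 higher at an unadjusted p under 0.05 (limma). Of 9 epithelial genes 7 fell in head, where 2.75% of all genes rose and 2.03% fell. Some of these genes lay above the array median on few arrays: Mylpf, Tnni1, Tnnc1 and Chrna1 on 6, Myh8 on 5, and Cldn6 and Grhl2 on 6. The filter may have admitted such genes through the stages where they were high, so the marker counts are a description. The part of these cell types in the Igf1 change was not tested.

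Igf1r encodes the receptor. Its signal on the head arrays was 10.06 and 8.59 at E9.5, 9.25 and 8.82 at E10.5, and 9.05 and 9.79 at E11.5. On the trunk arrays it was 8.18 and 8.95 at E9.5, 9.08 and 9.12 at E10.5, and 9.26 and 8.81 at E11.5. The regions overlapped at every stage, and each group overlapped with its neighbour in the order of means. Head minus trunk was 0.76 ± 0.43 at E9.5, -0.06 ± 0.43 at E10.5 and 0.38 ± 0.43 at E11.5, with 95% intervals of -0.17 to 1.70, -0.996 to 0.87 and -0.55 to 1.31. Differences inside these wide intervals could not be told from 0 with these arrays. The dimmer probe set 1426565_at ranged from 7.45 to 8.18 in head and from 7.40 to 8.04 in trunk and was not called in any comparison.

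Igfbp2 encodes a binding protein abundant in embryonic tissues. Its signal on the head arrays was 9.41 and 9.93 at E9.5, 10.05 and 9.85 at E10.5, and 9.71 and 9.68 at E11.5. On the trunk arrays it was 8.14 and 7.87 at E9.5, 9.07 and 9.16 at E10.5, and 9.10 and 9.35 at E11.5. All 6 head arrays lay above all 6 trunk arrays. Igfbp2 was 1.99-fold higher in head over the mean of the 3 stages, a log2 difference of 0.99 ± 0.12 (adjusted p = 0.000275). By stage, the difference was 1.66 ± 0.21 at E9.5 (adjusted p = 0.000685), 0.83 ± 0.21 at E10.5 (adjusted p = 0.0466) and 0.47 ± 0.21 at E11.5 (adjusted p = 0.41). The narrowing came with a trunk rise of 1.22 ± 0.21 to E11.5 from E9.5 (adjusted p = 0.00299), of which 1.11 ± 0.21 lay before E10.5 (adjusted p = 0.00932). The head change was 0.03 ± 0.21, and the difference between the changes, -1.19 ± 0.30, did not pass (adjusted p = 0.0887), although it did without the head E9.5 array numbered 1 (-1.45, adjusted p = 0.043). The call at E10.5 was lost without any 1 of the E10.5 or E11.5 arrays, with adjusted p of 0.0545 to 0.258. The trunk step to E10.5 was lost without either trunk E10.5 array or the trunk E9.5 array numbered 2, with adjusted p of 0.0539 to 0.0816. Averaged over E10.5 and E11.5 alone, which leaves out the trunk E9.5 arrays, Igfbp2 was still called higher in head, by 0.65 (adjusted p = 0.0225).

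Igfbp3 encodes the main IGF carrier of adult blood. Its signal on the head arrays was 8.59 and 8.54 at E9.5, 8.65 and 9.64 at E10.5, and 9.82 and 9.94 at E11.5. On the trunk arrays it was 6.92 and 7.04 at E9.5, 7.97 and 7.93 at E10.5, and 9.37 and 9.06 at E11.5. Head lay above trunk at each stage, and both regions were highest at E11.5. Over the 3 stages Igfbp3 was 2.22-fold higher in head, a log2 difference of 1.15 ± 0.16 (adjusted p = 0.000588). The difference was 1.59 ± 0.28 at E9.5 (adjusted p = 0.0046), 1.19 ± 0.28 at E10.5 (adjusted p = 0.0335) and 0.67 ± 0.28 at E11.5 (adjusted p = 0.36). Igfbp3 rose between E9.5 and E11.5 in both regions, 2.49-fold in head (log2 1.31 ± 0.28, adjusted p = 0.0167) and 4.70-fold in trunk (log2 2.23 ± 0.28, adjusted p = 0.000316). The changes differed by -0.92 ± 0.39 (adjusted p = 0.355). The head rise passed no longer without any 1 of the 4 head arrays at E9.5 and E11.5, with adjusted p up to 0.102, while its size stayed at 1.25 to 1.38. The call at E10.5 was lost without the head array numbered 2 (0.69, adjusted p = 0.0923) and without either trunk array (adjusted p = 0.181 and 0.185). Averaged over E10.5 and E11.5 alone, the head excess was 0.93 (adjusted p = 0.0143).

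Igfbp4 encodes a binding protein that mostly holds IGFs back from the receptor until it is cleaved. Its brightest probe set had 12.64 and 12.65, 12.51 and 12.31, and 12.23 and 12.57 on the head arrays at E9.5, E10.5 and E11.5. The trunk arrays had 11.66 and 12.26, 12.76 and 12.49, and 12.72 and 12.36. Trunk at E9.5 was the lowest group, and all groups overlapped with their neighbours in the order of means. Head minus trunk was 0.68 ± 0.19 at E9.5 (adjusted p = 0.0655), -0.21 ± 0.19 at E10.5 and -0.14 ± 0.19 at E11.5. In trunk, probe set 1437406_x_at, whose _x suffix marks probes that can also match other transcripts, rose from E9.5. The rise was 1.17 ± 0.22 to E10.5 (adjusted p = 0.0097) and 1.07 ± 0.22 to E11.5 (adjusted p = 0.00932, both over all probe sets). Probe set 1423756_s_at rose by 1.05 ± 0.26 to E10.5 (adjusted p = 0.0381). Of the 5 probe sets, 4 were higher in trunk at E10.5 than at E9.5 and 1 was lower. At E9.5, probe set 1437406_x_at was also called higher in head, by 0.99 ± 0.22 (adjusted p = 0.0234, over all probe sets). Without the trunk E9.5 array numbered 2, the brightest probe set also passed there, at 0.98 (adjusted p = 0.0135), and its trunk rise to E11.5, 0.58 ± 0.19 with all arrays (adjusted p = 0.0717), passed at 0.88 (adjusted p = 0.0144).

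Igfbp5 encodes a binding protein with a strong affinity for the extracellular matrix, and it is induced during differentiation of cultured myoblasts. Its signal on the head arrays was 13.10 and 13.01 at E9.5, 13.17 and 12.60 at E10.5, and 12.91 and 12.55 at E11.5. On the trunk arrays it was 11.92 and 12.09 at E9.5, 12.34 and 12.54 at E10.5, and 12.87 and 13.28 at E11.5. Head lay above trunk at E9.5 and E10.5, and the regions overlapped at E11.5. Igfbp5 was 2.07-fold higher in head at E9.5, a log2 difference of 1.05 ± 0.19 (adjusted p = 0.00561). The difference was 0.45 ± 0.19 at E10.5 (adjusted p = 0.175) and -0.34 ± 0.19 at E11.5 (adjusted p = 0.553). In trunk Igfbp5 rose 2.10-fold between E9.5 and E11.5, by 1.07 ± 0.19 on the log2 scale (adjusted p = 0.00315), against a head change of -0.32 ± 0.19. The head change minus the trunk change was -1.39 ± 0.27 (adjusted p = 0.0251).

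The Igfbp5 calls rest on less than those of Igf1. The mean over the 3 stages, 0.39 ± 0.11 (adjusted p = 0.0423), was 0.05 over E10.5 and E11.5 alone (adjusted p = 0.849), and it was lost in 9 of the 12 fits that left out 1 array (0.29 to 0.42, adjusted p of 0.0591 to 0.126). With all arrays it was also lost with no filter (adjusted p = 0.0632), with signals raised to the array median (0.065), with every probe set tested on its own (0.0546), without the intensity trend (0.122) and with the mean over probe sets (0.28, adjusted p = 0.142). Without the head E10.5 array numbered 2, the E10.5 difference passed, at 0.73 (adjusted p = 0.0491). The difference between the changes no longer passed without either of the head E9.5 or trunk E9.5 arrays numbered 1, without the head arrays numbered 2 at E9.5 or E11.5, or without the trunk E11.5 array numbered 2, with sizes of -1.44 to -1.19 and adjusted p up to 0.101. The E9.5 difference missed the threshold without the trunk array numbered 1 (0.96, adjusted p = 0.054). Its other probe set, 1422313_a_at, lay between 6.46 and 7.61 on all arrays, near the array median, and was not called: it gave 0.57 ± 0.32 at E9.5 and -0.48 ± 0.46 for the difference between the changes. The suffix _s of the main probe set marks probes shared by several transcripts.

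Igfbp7 encodes a binding protein of low IGF affinity that is deposited in vessel walls. Its signal was 8.32 and 6.90 on the head E10.5 arrays, the only ones above the array median. The other arrays had 5.57 to 6.36 in head and 5.13 to 6.66 in trunk. At E10.5, head minus trunk was 1.03 ± 0.51 (adjusted p = 0.247), and no fold is given for the other stages, where both regions lay below the median. Igfbp7 was tested only because these 2 head arrays passed the filter, so comparisons with head E10.5 are not independent of that choice. The other 2 probe sets lay below the median on every array and were not tested.

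Kazald1 encodes a secreted protein with an IGFBP-type and a Kazal-type domain, first described in bone. Its signal on the head arrays was 9.27 and 8.34 at E9.5, 7.31 and 7.93 at E10.5, and 6.82 and 7.03 at E11.5. On the trunk arrays it was 2.62 and 5.28 at E9.5, 3.27 and 4.38 at E10.5, and 5.45 and 4.65 at E11.5. Every head array lay above its array median and every trunk array below it, so the folds are lower bounds, set against the array median, and the trunk values have no firm order. The filter admitted Kazald1 through its head arrays alone, so a difference between the regions was built into its being tested, and its region calls are given as a description. Its head signal was at least 2.01-fold above trunk over the mean of the 3 stages (adjusted p = 0.000277 in the fit), at least 4.09-fold at E9.5 (adjusted p = 0.00237) and at least 1.79-fold at E10.5 (adjusted p = 0.0186). The call at E10.5 was lost without any 1 of the 4 arrays of that stage, with adjusted p of 0.0591 to 0.167, and with signals below the array median raised to it (0.84 on the log2 scale, adjusted p = 0.115). At E11.5 it did not pass (adjusted p = 0.343). In head the means at E9.5, E10.5 and E11.5 were 8.81, 7.62 and 6.92, with no overlap between stages. The head change to E11.5 from E9.5, -1.88 ± 0.75, did not pass (adjusted p = 0.203). With signals raised to the median, the setting that lost the E10.5 call, that change kept its size and passed (adjusted p = 0.0038). The head change minus the trunk change was -2.98 ± 1.07 and did not pass (adjusted p = 0.251). With signals raised to the median it was -1.89 (adjusted p = 0.0432). That setting puts every trunk array at the median, so the difference repeats the head change. It also removes the trunk spread, which narrows the SE of the head change from 0.75 to 0.28.

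**Figure D2:**
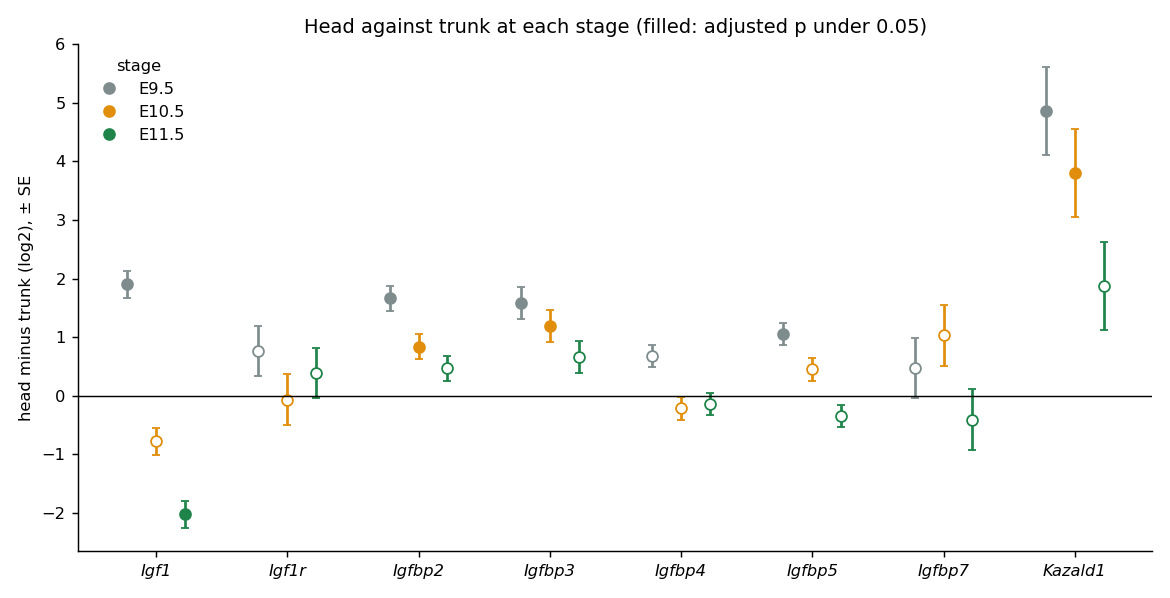
Head minus trunk log2 difference (y axis, ± SE of the limma fit) of each gene (x axis) at E9.5, E10.5 and E11.5, with 2 arrays per group. Filled points have an adjusted p under 0.05. The Igf1 points go down from 1.90 through -0.77 to -2.02, those of Igfbp2, Igfbp3 and Kazald1 stay above 0 while shrinking, and the values of Kazald1 are fitted to trunk signals below the array median.

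The 8 genes were chosen with earlier results of these data known, so counts over them are a description. Counted over the 8 genes, 4 were higher in head for the average of the 3 stages and 0 were lower, with 1 lower at an unadjusted p under 0.05 (limma). Over all genes tested, 6.85% were called higher and 3.61% lower. The 4 were Igfbp2, Igfbp3, Igfbp5, whose call was lost under most alternatives, and Kazald1, which was tested through its head arrays only and is also in the counts at E9.5 and E10.5. At E9.5, 5 were higher and 0 lower, where 4.67% of all genes were higher and 1.24% lower. At an unadjusted p under 0.05 (limma), 6 were higher and 0 lower at that stage. All 8 differences were positive there, those of Igfbp7 and Kazald1 included, with a median of 1.32 on the log2 scale, against -0.01 over all genes. At E10.5, 3 were higher, Igfbp2, Igfbp3 and Kazald1, and 0 lower, where 2.45% of all genes were called higher and 2.07% lower, with 1 lower at an unadjusted p under 0.05 (limma). At E11.5, 1 was lower, Igf1, and 0 higher, with 3 higher at an unadjusted p under 0.05, where 1.36% of all genes were lower and 0.712% higher. The E10.5 count depended on single arrays: it was 1 without either head array and 0 without either trunk array of that stage.

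Between the stages, 4 of the 8 genes rose in trunk to E11.5 from E9.5, namely Igf1, Igfbp2, Igfbp3 and Igfbp5, and 0 fell. Of all genes, 8.73% rose and 4.71% fell in that comparison. At an unadjusted p under 0.05 (limma), 5 of the 8 were higher and 0 lower. Of the 4 genes, Igf1 and Igfbp2 were already called higher in trunk by E10.5, where 5.46% of all genes were called higher and 1.74% lower. Igfbp3, at 0.97 ± 0.28, missed the threshold in that step (adjusted p = 0.0548), and passed with the groups compared alone (adjusted p = 0.0392). At an unadjusted p under 0.05 (limma), 5 of the 8 were higher in that step and 0 lower. In head, Igfbp3 alone was called to E11.5 from E9.5, where 2.75% of all genes rose and 2.03% fell. In neither region was any of the 8 called between E10.5 and E11.5, where 0.531% of all genes rose and 0.453% fell in head, and 0.0259% rose and 0 fell in trunk. At an unadjusted p under 0.05 (limma), 3 were higher in trunk, and 1 higher and 2 lower in head. Between E9.5 and E10.5 in head 0 were called, where 0.699% of all genes rose and 0.259% fell, with 2 higher at the unadjusted p. The head change minus the trunk change was negative for all 8 genes, with a median of -1.05 against 0.01 over all genes. It passed for Igf1 and Igfbp5, where 1.20% of all genes were called negative and 0.272% positive. Head and trunk differences at E9.5 and trunk changes from E9.5 share the trunk E9.5 arrays, and so does the difference between the changes.

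**Figure D3:**
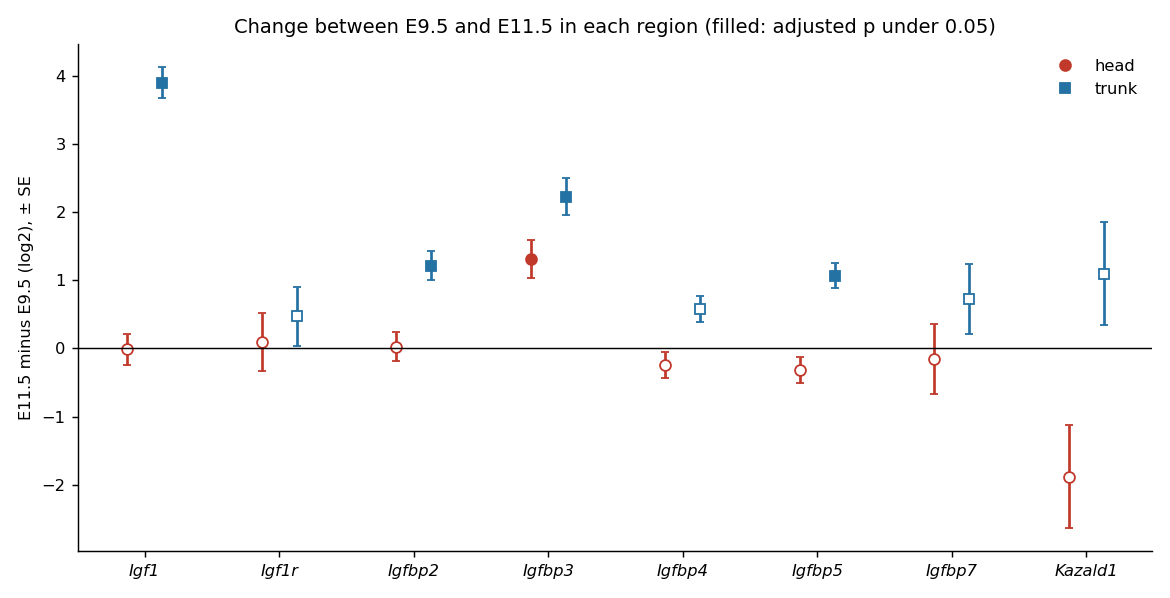
Log2 change between E9.5 and E11.5 (y axis, E11.5 minus E9.5, ± SE of the limma fit) of each gene (x axis) in head (circles) and trunk (squares). Filled points have an adjusted p under 0.05. Igf1 is at -0.01 in head and 3.91 in trunk, and Igfbp3 is the gene filled in both regions, at 1.31 and 2.23.

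**Figure D4:**
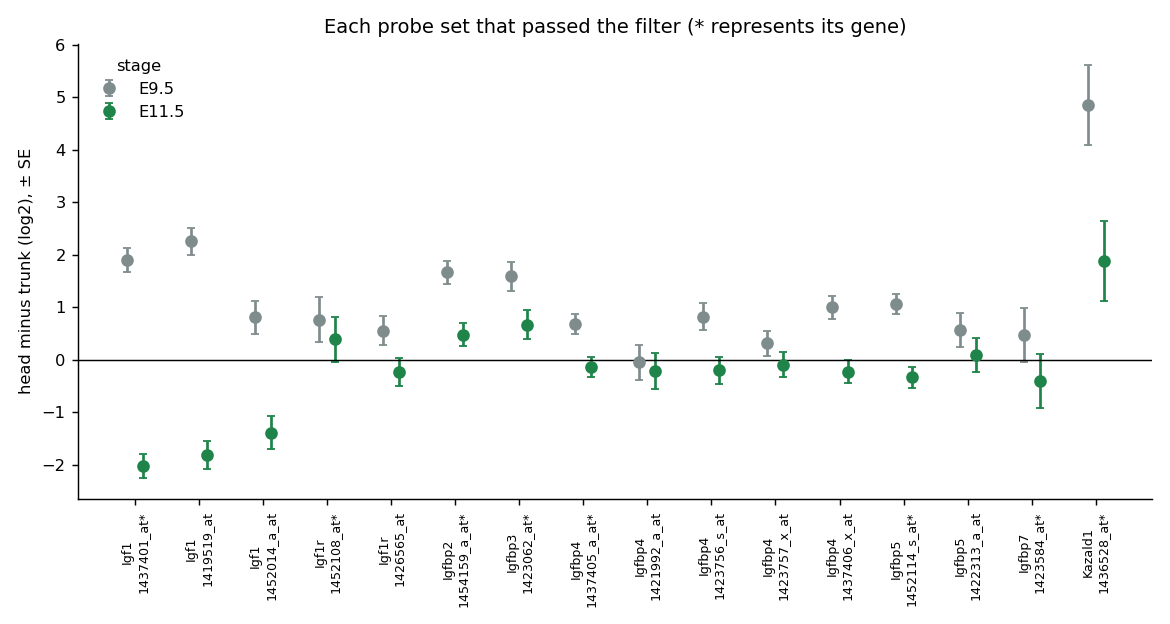
Head minus trunk log2 difference (y axis, ± SE, fitted over all probe sets) at E9.5 and E11.5 for the 16 probe sets that passed the filter (x axis, * marks the set that represents its gene). The 3 Igf1 probe sets lie above 0 at E9.5 and below 0 at E11.5. Of the 5 Igfbp4 probe sets, 4 lie above 0 at E9.5, and all 5 lie below 0 at E11.5.

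The levels of the 8 genes were only in part alike across the 12 arrays, which share 6 groups, so the following correlations are descriptions. Igfbp2 was most like Igfbp3 (Pearson r = 0.78) and Igfbp5 (0.76), and Igf1 was unlike Kazald1 (-0.03) and Igf1r (0.17). The genes of all 7722 whose pattern came closest to Igf1 were Corin (0.98), a transmembrane protease, Limch1 (0.97) and Egfl6 (0.94). Closest to Igfbp2 were the transcription factor genes Ebf1 (0.97) and Isl1 (0.97) and the WNT agonist gene Rspo2 (0.96). Isl1 is also on the neuronal list. Closest to Igfbp3 were Rp9 (0.97), Spats2l (0.95) and Msc (0.95), a transcription factor gene of branchiomeric muscle progenitors. Closest to Kazald1 were Irx5 (0.94), Cyp1b1 (0.93) and Tlx1 (0.93), the first and the last of which encode homeobox factors. The nearest gene reached 0.91 for Igf1r (Ubtf), 0.92 for Igfbp4 (Slc44a1), 0.90 for Igfbp5 (Cbarp) and 0.93 for Igfbp7 (Slc25a11). All trunk Kazald1 signals and most Igfbp7 signals lay below the array median, which limits every correlation of Kazald1 and Igfbp7. Kazald1 and Tlx1 both passed the filter through head arrays alone.

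Other genes of the pathway were grouped in 4 lists. Of the list of other ligands, receptors and receptor-level genes, 7 of 13 were tested. Over the mean of the 3 stages 1 was higher in head, Grb14, whose adaptor protein binds insulin-family receptors and dampens their signal, where 6.85% of all genes were higher, and the list's median was 0.09 against 0.00 over all genes. Grb14 was 8.34 and 8.50 in head at E9.5, 8.48 and 8.89 at E10.5, and 8.85 and 10.15 at E11.5. In trunk it was 7.14 and 6.86, 7.05 and 7.10, and 6.95 and 7.79. All head arrays lay above all trunk arrays, and Grb14 was 3.30-fold higher in head (log2 1.72 ± 0.22, adjusted p = 0.00035). Igf2r, whose product binds IGF2 and takes it to lysosomes, was 1.64-fold higher in head at E10.5 (adjusted p = 0.0353).

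Igf2, the main embryonic IGF, rose between E9.5 and E11.5 in both regions, by 0.59 ± 0.14 on the log2 scale in head (adjusted p = 0.0376) and 2.47-fold in trunk (log2 1.31 ± 0.14, adjusted p = 0.000167). Its head arrays had 12.70 and 12.27 at E11.5, against 11.91 and 11.88 at E9.5. Its trunk arrays had 12.77 and 12.86 at E11.5, against 11.45 and 11.57 at E9.5. The difference between the changes of Igf2 was not called. Igf2bp1, whose product binds Igf2 and other mRNAs, fell in both regions, 2.03-fold in head (adjusted p = 0.041) and 2.13-fold in trunk (adjusted p = 0.0145). Igf2bp3 fell 1.53-fold in head (adjusted p = 0.017). In all, 1 of the 7 rose and 2 fell in head, and 1 rose and 1 fell in trunk, where 2.75% of all genes rose and 2.03% fell in head and 8.73% rose and 4.71% fell in trunk, with medians of 0.06 and 0.11 against 0.00 and -0.01 over all genes.

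Of the remaining binding proteins with their proteases and partners, 7 of 13 were tested, and Igfbp1, Igfbp6 and Igfals did not pass the filter. Over the 3 stages 1 was lower in head and 0 were higher, with 2 higher at an unadjusted p under 0.05, where 3.61% of all genes were lower. This was Plat, tissue plasminogen activator, at -0.85 ± 0.12 (adjusted p = 0.000676), with 8.84 to 9.87 on the head arrays, against 9.96 to 10.41 on the trunk arrays and no overlap. At E9.5, Mmp2, which encodes a matrix protease, was 1.83-fold higher in head (adjusted p = 0.0254). Stc2, whose product inhibits the IGFBP protease PAPP-A, was at least 1.80-fold lower in head at E9.5 (adjusted p = 0.0257). Both changed differently by E11.5. Mmp2 rose in trunk by 1.45 ± 0.20 and changed by 0.14 in head, and the head change minus the trunk change was -1.31 ± 0.29 (adjusted p = 0.0466). Stc2 rose in head by 1.49 ± 0.33, against a change of -0.96 in trunk, and the difference was 2.45 ± 0.47 (adjusted p = 0.0258).

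Of the relatives with an IGFBP-type domain, 8 of 12 were tested. In trunk 4 of the 8 rose between E9.5 and E11.5, where 8.73% of all genes rose, with a list median of 0.82 against -0.01 over all genes. They were Ccn3 (at least 1.89-fold, adjusted p = 0.000203) and Ccn4 (at least 3.83-fold, adjusted p = 0.000356), which encode matricellular proteins, Igfbpl1 (log2 1.19 ± 0.32, adjusted p = 0.0301) and the secreted protease gene Htra1 (at least 1.38-fold, adjusted p = 0.0491). Ccn3, Ccn4 and Htra1 lay below the array median on every E9.5 array, so the filter admitted them through later stages alone. A rise was built into their being tested, and their calls are given as a description. In head 0 of the 8 were called, with 2 higher at an unadjusted p under 0.05 (limma). At E11.5, Ccn4 was 2.72-fold lower in head (adjusted p = 0.047) and Igfbpl1 at least 2.20-fold lower (adjusted p = 0.0426). Ccn4 was also lower in head over the mean of the 3 stages, by at least 1.46-fold (adjusted p = 0.0116). Ccn3 was called at E9.5, at 1.66 ± 0.39 (adjusted p = 0.0257), on signals below the array median in both regions, so that it has no fold.

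Of the intracellular signalling genes, 26 of 38 were tested. Over the 3 stages 3 were higher in head and 0 lower, with 1 lower at an unadjusted p under 0.05, where 6.85% of all genes were higher and 3.61% lower, and the list's median was 0.15 against 0.00 over all genes. Socs3 was 2.23-fold higher in head (adjusted p = 0.00289) and Socs2 1.88-fold (adjusted p = 0.00252), both inhibitors of cytokine and growth factor receptor signals. Irs1, the docking protein of the insulin and IGF1 receptors, was 1.27-fold higher (adjusted p = 0.0199). The Socs2 head arrays had 8.78 to 9.59, against 7.74 to 8.38 on the trunk arrays, with no overlap. Irs1 rose between E9.5 and E11.5 in both regions, by 0.72 ± 0.14 in head (adjusted p = 0.0136) and 0.56 ± 0.14 in trunk (adjusted p = 0.0219). At E11.5 it was 1.56-fold higher in head (adjusted p = 0.0435). Eif4ebp1, a repressor of translation that mTOR inactivates, fell 1.97-fold in trunk (adjusted p = 0.0174). Between the regions 24 of the 26 were not called at E9.5, with 5 higher and 0 lower at an unadjusted p under 0.05 (limma). At E10.5, 26 were not called, with 4 higher and 2 lower at the unadjusted p. At E11.5, 25 were not called, with 6 higher and 0 lower at the unadjusted p. Over all genes, 4.67% were called higher and 1.24% lower at E9.5, 2.45% and 2.07% at E10.5, and 0.712% and 1.36% at E11.5.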

How the data were processed

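Per the labels, RNA of sorted YFP-positive cells was isolated in QIAzol, amplified by MessageAmp chemistry and labelled with biotin as cRNA for a mouse expression array. The deposited values are linear probe set intensity made with MAS5 and Affymetrix Expression Console, per the submitters' processing notes, without versions. Between arrays, percentiles from the 10th to the 99th lay within 0.0353 of each other on the log2 scale, so log2 was taken and nothing else was done.

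The table has 22690 probe sets. After removal of 64 controls, 20380 that the platform annotation gives to 1 gene were used (691 had several, 1555 none). The filter left 11739 probe sets and 7722 genes. Differences were tested with limma 3.58.1 in R 4.3.3: 1 mean for each of 6 groups, empirical Bayes whose prior follows intensity (degrees of freedom 6 residual, 5.87 prior), two-sided p, Benjamini-Hochberg over all genes tested, called at an adjusted p under 0.05, in 11 comparisons. The fit was tested on simulated data. Folds are bounds ("at least") where an array of the dimmer side lay below its median, which then stood in for it. The number of arrays limits the precision.

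The 8 genes and all lists were chosen with earlier results of these data known. Named by rule were the 8 genes, up to 4 called genes of smallest p per pathway list and comparison, and the 3 closest patterns per gene. Tlx1 and Igfbp1 are discussed as neighbours after their values were seen. Gene neighbours come from a RefSeq table of GRCm38.p6. Alternatives covered normalization, filters, the choice of probe set, the fit, a replicate block and leaving out arrays.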

Additional observations from a re-analysis of the deposited data

Results flagged for a closer look

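The change between E9.5 and E11.5 differed between the regions for Igf1 and Igfbp5 by the test of the difference itself (limma, 2 arrays in each of 6 groups). For Igf1, head minus trunk was -3.92 (log2), with every trunk array at E11.5 above every trunk array at E9.5 and the head arrays overlapping between these stages. For Igfbp5 it was -1.39, and the head arrays at E11.5 lay below those at E9.5 while the trunk arrays at E11.5 lay above.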

How the results depend on the processing

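Among the differences of the 8 genes, none changed sign past the threshold under any alternative. Igf1 kept its calls at E9.5, at E11.5, for the trunk change and for the difference between the changes in all 12 fits that left out 1 array, with adjusted p of at most 0.00715 at E9.5 and 0.0136 at E11.5. Of the 8 genes, the number called at E10.5 was 3, and 1 with no filter on low signals, with signals raised to the array median, without the intensity trend and without both E10.5 arrays numbered 1. It was 4 with the mean over probe sets, which added Igf1. Leaving out both E10.5 arrays numbered 1 left 1 gene called in trunk between E9.5 and E10.5 in place of 2. In head between E9.5 and E11.5, 2 were called in place of 1 with signals raised to the median, with an offset of 32 added before log2 and with groups compared alone. For the difference between the changes, 1 was called in place of 2 with the mean over probe sets, without the trend and without suffixed probe sets. Leaving out suffixed probe sets removes Igfbp2, Igfbp4 and Igfbp5, and the counts became 2 for the mean of stages, 3 at E9.5, 1 and 2 for trunk by E10.5 and E11.5.

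Without 1 array at a time, the number called ranged from 3 to 4 for the mean of stages, 4 to 6 at E9.5, 0 to 3 at E10.5, 0 to 2 in head between E10.5 and E11.5, 0 to 1 in head between E9.5 and E11.5, 1 to 3 in trunk between E9.5 and E10.5, 4 to 6 in trunk between E9.5 and E11.5, and 1 to 4 for the difference between the changes. A lone array was assumed to vary like the other groups. The count at E11.5 stayed at 1. Over all genes the replicate numbers did not meet the bar for pairing: of 15 pairs of groups 2 had deviations correlated above 0.1, from -0.30 to 0.17, and head and trunk at E10.5 had -0.00053, although Xist was low on the arrays numbered 1 of both. With the replicate block, the mean of stages called 3 and E10.5 called 2 of the 8 genes, since Igfbp5 (adjusted p = 0.0562) and Igfbp2 (adjusted p = 0.064) were lost, and no other call of the 8 genes changed.

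Over all genes, counts moved by more than 1.5 times. Without both E10.5 arrays numbered 1, calls were 446 in place of 808 (mean of stages), 34 in place of 349 (E10.5), 0 and 4 in place of 74 and 76 (head before and after E10.5), 95 in place of 556 (trunk by E10.5), 0 in place of 2 (trunk after E10.5) and 63 in place of 114 (difference). With groups compared alone they were 84 in place of 160 at E11.5, 213 in place of 369 in head and 679 in place of 349 at E10.5. With signals raised to the median they were 127 and 133 in head before and after E10.5 and 16 in trunk after it. Leaving out 1 array gave 534 to 912 for the mean of stages, 238 to 452 in place of 457 at E9.5, 64 to 484 at E10.5, 56 to 171 at E11.5, 2 to 135 and 6 to 165 in head before and after E10.5, 173 to 395 in head between E9.5 and E11.5, 105 to 578 in trunk by E10.5, 0 to 4 after it, 434 to 1078 in place of 1038 in trunk between E9.5 and E11.5, and 57 to 120 for the difference. The shares over all genes printed beside the counts move with these. Quantile normalization and median centring moved the share of higher calls by under 10 percentage points. Signals near or under the array median limit Igfbp7 and trunk Kazald1.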

Other observations

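Kazald1 and Tlx1, which encodes a homeobox factor, are neighbouring protein-coding genes on chromosome 19 in GRCm38.p6, with Sfxn3 on the other side of Kazald1. Among all 7722 genes tested, Tlx1 had the third closest pattern to Kazald1 across the 12 arrays, as described above. Its log2 signal was 9.08 and 7.96 in head at E9.5, 6.34 and 6.92 at E10.5, and 5.64 and 6.02 at E11.5, against 2.02 and 4.15, 4.55 and 4.17, and 3.51 and 4.23 in trunk. All head arrays lay above all trunk arrays, as for Kazald1, and most values lay below the array median. Tlx1 too passed the filter through head arrays alone, so a difference between the regions was built into its being tested. Its likeness to Kazald1 is not independent of that choice. The neighbours were looked up after the pattern had been seen, and no test was made.

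Igfbp2 and Igfbp5, neighbours on chromosome 1, were both higher in head at E9.5 and both rose in trunk. At E11.5 they were on opposite sides of 0, at 0.47 ± 0.21 and -0.34 ± 0.19 (log2, head minus trunk), and neither passed.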
